A study of Mus musculus with 5 samples.

Results

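The genes described here are 9 genes of the glucocorticoid response, chosen by name and not by their change, though with earlier results of these data known. Fkbp5, Tsc22d3, Zbtb16, Klf9, Ddit4 and Pdk4 are known to be induced by the activated glucocorticoid receptor. Nr3c1 encodes the receptor, and Hsd11b1 and Hsd11b2 encode the enzymes that make and remove active hormone inside cells. The array carried 13 probes for them, of 56605 noncontrol probes in all, and after 1 probe was kept per gene they were 9 of the 32917 features tested. Each of the 13 was read well above background on every array, so that every gene entered the comparison and none was lost to the filter on dim probes. RNA was from the whole colon of wild-type C57BL/B6 mice, which a legend of the study gives as 8 weeks old. The 2 Control arrays were of untreated mice, and the 3 NT-3N arrays of mice given an intravenous injection of NT-3N, an agonist of the interleukin-11 receptor made by modifying human IL-11, with colon taken 3 hr later. The labels give the dose as 10 mg and the methods as 10 µg. No vehicle-injected group was among the samples, and the hour of day at which colons were taken is not given in the sources used here, so that the agonist, the injection and handling cannot be told apart. The methods give 3 injected mice. No source used here says that the 2 Control arrays came from separate mice, and if they did not, the p-values rest on a Control spread that may be technical.

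Glucocorticoids are steroid hormones that the adrenal cortex releases under stress and with a daily rhythm, and the gut epithelium can also make them. The hormone binds its receptor in the cytoplasm, where chaperones of the HSP90 family hold it, and the complex enters the nucleus and binds DNA at inverted repeats of a short hexamer, raising the transcription of some genes and lowering that of many inflammatory genes. Cytokines of the IL-6 family, to which IL-11 belongs, are known to act together with glucocorticoids on acute-phase genes, which is the question that the 9 genes address here: whether the colon carried a glucocorticoid response 3 hr after the agonist.

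Values are log2 of the background-subtracted spot signal after quantile scaling between arrays, and a difference is the mean of the NT-3N arrays minus that of the Control arrays on this scale, with its standard error (SE) and 95% interval from limma. No spot was saturated, the share of probes well above background was 70.6% to 72.9% per array, and correlations between arrays across features lay between 0.980 and 0.992. In whole tissue, fewer cells of a type and less RNA per cell cannot be told apart. The colonocyte markers Car1 and Krt20 and the smooth muscle marker Myh11 were all well above background on each of the 5 arrays. Markers of fat and B cells differed widely between arrays. With each gene centred on its own mean, 6 fat markers averaged 1.39 and -0.88 on Control and 1.03, 0.19 and -1.72 on NT-3N. For 6 B cell markers it was -0.01 and -1.70 on Control and 0.60, 0.37 and 0.75 on NT-3N. Their part in the values of the 9 genes was not tested.

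None of the 9 genes was called at an adjusted p under 0.05 (limma, Benjamini-Hochberg over all 32917 features), where 0.143% of all features were called. At an unadjusted p under 0.05 there were 3 members, Tsc22d3, Pdk4 and Hsd11b1, all with a lower mean in NT-3N, beside 9.62% of all features in either direction and 4.67% lower in NT-3N. The mean was lower in NT-3N for 7 of the 9 genes (77.8%), against 53.6% of all features. The median difference of the 9 was -0.30, against -0.02 over all features, and the median size of the difference was 0.30, against 0.15. Arrays of the groups did not overlap for 3 members (33.3%), which is near the 28.4% of all features for which they did not. No member differed by 2-fold or more. By the brightest probes, no upper bound of a member's interval was above a 1.39-fold higher level, while the lower bounds reached 0.378 of the Control level for Zbtb16 and 0.394 for Pdk4. The second probe of Fkbp5 had a higher upper bound, of 0.64 on the log2 scale.

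**Figure D1:**
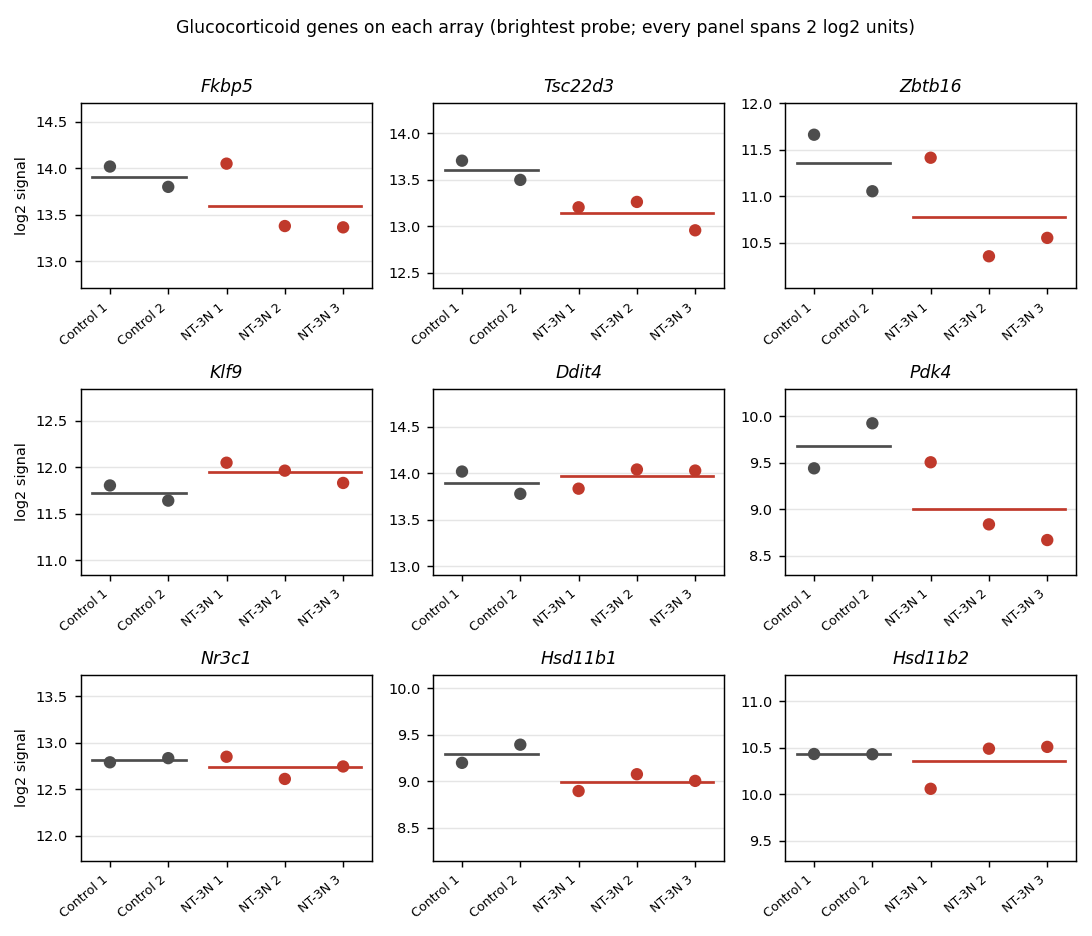
Log2 signal of the brightest probe (vertical axis) on each of the 5 arrays (horizontal axis) for the 9 genes, with Control arrays in grey, NT-3N arrays in red and lines at the group means. All panels span the same range of 2 log2 units. Tsc22d3 and Hsd11b1 are lower on all 3 NT-3N arrays than on either Control array, Klf9 is higher, and NT-3N replicate 1 lies apart from replicates 2 and 3 for Fkbp5, Zbtb16 and Pdk4.

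The DNA in front of these genes was examined first, since the receptor acts through it. RefSeq promoter windows, 250 bases before to 50 after a transcript start in GRCm38.p6, were found for 6 of the 9 genes in 8 windows. The search was for the full element, the hexamers AGAACA and TGTTCT in that order with 3 bases between them, which reads the same on both strands. None of the 8 windows held the full element or a looser form with 4 fixed bases in each hexamer, which 0.00913% and 0.472% of all 32851 windows held, respectively. Either hexamer alone, on either strand, was in 1 of the 8, a window of Tsc22d3, and in 19% of all windows. Sequences are shown for that window and, for comparison, for 1 of the 3 windows in the whole table with the full element, which lies at a start of Sgk1, a kinase gene of the wider list of induced genes. Capitals mark the hexamers and, in Sgk1, the full element with its spacer. Both are printed in the direction of transcription.
Tsc22d3, chrX:140600473-140600772, minus strand: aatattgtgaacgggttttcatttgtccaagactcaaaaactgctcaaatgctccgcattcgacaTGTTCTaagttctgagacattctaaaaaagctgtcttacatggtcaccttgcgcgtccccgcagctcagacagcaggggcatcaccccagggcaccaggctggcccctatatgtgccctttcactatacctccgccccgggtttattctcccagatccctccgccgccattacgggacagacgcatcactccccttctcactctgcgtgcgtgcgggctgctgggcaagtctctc
Sgk1, chr10:21993640-21993939, plus strand: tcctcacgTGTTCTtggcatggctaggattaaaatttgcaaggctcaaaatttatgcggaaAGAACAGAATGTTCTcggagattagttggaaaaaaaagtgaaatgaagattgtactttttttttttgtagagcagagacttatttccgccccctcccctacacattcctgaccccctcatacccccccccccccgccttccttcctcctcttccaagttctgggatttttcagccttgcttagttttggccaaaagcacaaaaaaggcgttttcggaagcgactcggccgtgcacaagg
The hexamer of Tsc22d3 begins 185 bases before the start, and the full element of Sgk1 189 bases before it. Receptor sites lie also far outside such windows, so a window without these letters says nothing of whether the receptor acts on the gene. The brightest probe of Sgk1 read 14.93 and 14.79 on the Control arrays and 14.19, 14.80 and 14.44 on the NT-3N arrays. The groups overlapped, with a difference of -0.39 (SE 0.17, limma unadjusted p = 0.063, adjusted p = 0.55).

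Tsc22d3 encodes GILZ, a leucine zipper protein that carries part of the anti-inflammatory action of glucocorticoids in immune cells and is among the most used readouts of the receptor. Its brightest probe read 13.70 and 13.50 on the Control arrays and 13.20, 13.26 and 12.95 on the NT-3N arrays. All 3 NT-3N arrays lay below both Control arrays. The difference was -0.46 (SE 0.12, 95% interval -0.75 to -0.17), with an unadjusted limma p of 0.0076 and an adjusted p of 0.32. The second probe of Tsc22d3 gave the same arrangement, with 11.96 and 11.81 on Control and 11.43, 11.65 and 11.47 on NT-3N, and a difference of -0.37 (SE 0.10). Of the 9 genes, Tsc22d3 had the smallest unadjusted p. An exact two-sided permutation test of the 5 arrays gave 0.1, the smallest p that 2 against 3 arrays allow, so that this design cannot reach 0.05 by permutation.

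Fkbp5 encodes a co-chaperone that lowers the receptor's affinity for hormone, and its induction forms a short feedback loop. Its brightest probe read 14.02 and 13.80 on Control and 14.05, 13.38 and 13.36 on NT-3N. NT-3N replicate 1 was the highest of the 5 arrays and replicates 2 and 3 were the lowest, so the groups overlapped, with a difference of -0.31 (SE 0.22, 95% interval -0.84 to 0.22, adjusted p = 0.69). The probes of Fkbp5 disagreed: the second read 11.24 and 10.83 on Control and 11.54, 10.91 and 10.69 on NT-3N, a difference of 0.01 (SE 0.26). The order of the 5 arrays for the brightest probe was that of the summed level of 8 epithelial markers, all 8 of them above background on every array, whose log2 sum was 19.17 to 19.27 in Control and 18.93 to 19.38 in NT-3N. That order was shared by 2.53% of all features, a share for this single pair among many pairs of a member and a list that could match. The mean of the 8 markers, each centred on its own mean, had it too (0.12 and -0.04 on Control, 0.15, -0.09 and -0.14 on NT-3N). Of the single markers, Car1 and Krt20 alone had it. Krt8 and Cdh1 were highest on NT-3N replicate 2, and Slc26a3 was higher on all 3 NT-3N arrays than on either Control array. The part of epithelial content in the Fkbp5 values was not tested.

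Zbtb16 encodes PLZF, a zinc finger repressor with strong induction by glucocorticoids in many cell types. It read 11.66 and 11.06 on Control and 11.42, 10.36 and 10.55 on NT-3N. Replicate 1 of NT-3N lay between the Control arrays, and the other two were below both. The difference was -0.58 (SE 0.34, 95% interval -1.40 to 0.23, adjusted p = 0.64). Its second, dimmer probe gave -0.30 (SE 0.30).

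Pdk4 encodes a kinase that shuts down pyruvate dehydrogenase and so spares glucose, and it answers to fasting as well as to glucocorticoids. It read 9.44 and 9.92 on Control and 9.50, 8.84 and 8.67 on NT-3N. Again NT-3N replicate 1 lay between the Control arrays and the other two below them. The difference of -0.68 was the largest of the 9 in size (SE 0.28, 95% interval -1.35 to -0.01), with an unadjusted limma p of 0.047 and an adjusted p of 0.51. Whether the groups were fed alike is not given in the sources used here.

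The differences of Fkbp5, Zbtb16 and Pdk4 turned on single arrays in size, though not in sign. Without NT-3N replicate 1 they were -0.54, -0.91 and -0.93, with adjusted p of 0.11, 0.16 and 0.13 (limma), and no member was called in that fit either. Without Control replicate 1 they were -0.20, -0.28 and -0.92, and without Control replicate 2 they were -0.42, -0.89 and -0.44. Fkbp5 was also closer to 0, at -0.20, without NT-3N replicate 2 or 3, and Zbtb16 was at -0.37 without NT-3N replicate 2.

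Klf9 encodes a Krüppel-like transcription factor that responds to glucocorticoids within hours and also follows the body clock. It read 11.80 and 11.64 on Control and 12.05, 11.96 and 11.83 on NT-3N. All 3 NT-3N arrays lay above both Control arrays, the lowest of them by a margin smaller than the gap between the Control arrays. The difference was 0.23 (SE 0.10, 95% interval -0.03 to 0.48, adjusted p = 0.56). Leaving out Control replicate 2 gave 0.14, and leaving out Control replicate 1 gave 0.31.

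Ddit4 encodes REDD1, an inhibitor of mTOR complex 1 that glucocorticoids, hypoxia and energy stress induce. It read 14.02 and 13.78 on Control and 13.84, 14.04 and 14.03 on NT-3N, with overlap of the groups and a difference of 0.07 (SE 0.11, 95% interval -0.19 to 0.33, adjusted p = 0.86). Of the 6 induced genes, Klf9 and Ddit4 had the higher mean in NT-3N and the remaining 4 the lower.

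**Figure D2:**
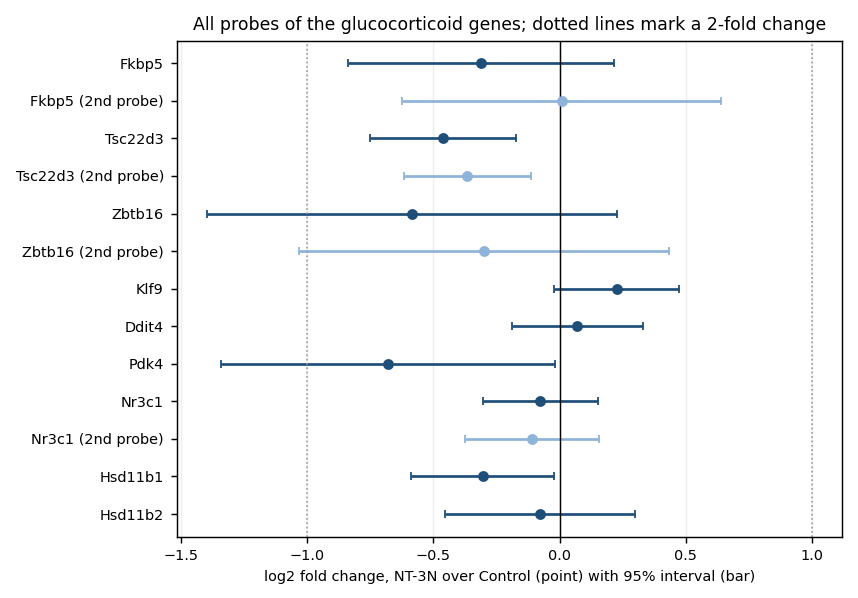
Difference in log2 signal, NT-3N minus Control (horizontal axis, points), with 95% intervals from limma (bars), for all 13 probes of the 9 genes (vertical axis). Dark points are the brightest probe of a gene, light points a second probe, and dotted lines mark a 2-fold change. The intervals of Tsc22d3, Pdk4 and Hsd11b1 lie below 0. No interval reaches a 2-fold higher level, while those of Pdk4 and of both probes of Zbtb16 reach past a 2-fold lower level.

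Nr3c1, the receptor gene, varied least of the members over the 5 arrays, with a span of 0.24. It read 12.79 and 12.83 on Control and 12.85, 12.61 and 12.74 on NT-3N, and the groups overlapped. The difference was -0.08 (SE 0.09, 95% interval -0.31 to 0.15, adjusted p = 0.82), and its second probe gave -0.11 (SE 0.11).

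The enzymes of hormone conversion act in opposite directions. Hsd11b1 regenerates corticosterone, the active glucocorticoid of mice, from its inert form. It read 9.20 and 9.39 on Control and 8.89, 9.08 and 9.0 on NT-3N. Each NT-3N array was below both Control arrays. The difference was -0.30 (SE 0.12, 95% interval -0.59 to -0.02), with an unadjusted limma p of 0.041 and an adjusted p of 0.50. The array order of Hsd11b1 was that of the summed level of 6 smooth muscle markers, all above background on every array, with a log2 sum of 18.77 to 18.81 in Control and 18.32 to 18.67 in NT-3N. That order was shared by 1.64% of all features, again a share for a single pair among many that could match. Of the single markers, Cnn1 alone had it. The mean of all 6 smooth muscle markers was lower in NT-3N, with 2 of the 6 at an unadjusted p under 0.05 and none called, and their part in the Hsd11b1 values was not tested.

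Hsd11b2 inactivates corticosterone and, in colonocytes, keeps the mineralocorticoid receptor free for aldosterone. It read 10.43 on both Control arrays and 10.06, 10.49 and 10.51 on NT-3N, where replicate 1 was the lowest array and the other two the highest. The difference was -0.08 (SE 0.16, 95% interval -0.46 to 0.30, adjusted p = 0.89).

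For the genes whose level spanned at least 1 log2 unit over the arrays, Zbtb16 (1.31) and Pdk4 (1.26), the genes with the most similar profile were sought among 16736 genes above background on all arrays, by the root mean square difference of centred log2 values over the 5 arrays. Among the nearest to Zbtb16 were Cntn3 (0.13) and Gm10536 (0.14). The nearest to Pdk4 were Fam78a (0.06), Cib3 (0.09) and 3110015C05Rik (0.09). No other member was among them.

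Other genes of the pathway came from lists of known function, chosen with earlier results of these data known. The counts drawn from the lists are therefore descriptions and no independent evidence. Of 26 other glucocorticoid-induced genes, all tested, 9 had a higher and 3 a lower mean at an unadjusted p under 0.05, and 1 was called. Of all 32917 features, 1629 were higher and 1538 lower at that threshold, which stands beside the counts of this list and of each list below. Their median difference was 0.06. Cebpd, a transcription factor gene of the acute-phase response, rose: it read 13.00 and 12.69 on Control and 14.28, 14.85 and 14.60 on NT-3N, a difference of 1.73 (SE 0.18, adjusted p = 0.043). The difference was 1.58 to 1.89 under 18 other settings, of which 11 called it and 7 did not, among them those without either Control array or without NT-3N replicate 2 or 3 (adjusted p 0.089 to 0.24). NT-3N replicate 1 stood with the other agonist arrays there, well above both Control arrays. Mt2, a metallothionein, read 14.27 and 14.65 on Control and 16.04, 15.60 and 15.42 on NT-3N, a difference of 1.23 (SE 0.20, adjusted p = 0.13). Il1r2, the decoy receptor of IL-1, differed by 1.21 (SE 0.24, adjusted p = 0.20), Lcn2, an iron-sequestering acute-phase protein, by 1.03 (SE 0.24, adjusted p = 0.27), and Bcl6, a transcriptional repressor, by 0.89 (SE 0.10, adjusted p = 0.054). None of these 4 was called. Their groups did not overlap, which held for 28.4% of all features, and these genes were picked for large differences. Cebpd, Mt2, Lcn2 and Bcl6 are also known to answer to STAT3, the factor that IL-11 signaling activates. The 3 genes with a lower mean, named after their values were seen, were Rgs2 (-0.61), a regulator of G protein signaling, Pck1 (-0.54), a gluconeogenic enzyme, and Tns1 (-0.51), a focal adhesion protein.

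**Figure D3:**
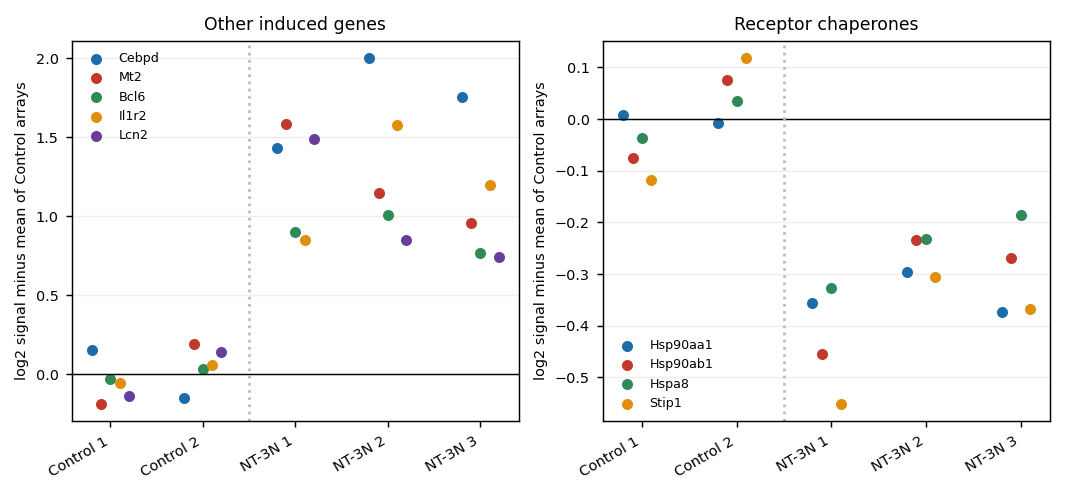
Log2 signal minus the mean of the Control arrays (vertical axis) on each array (horizontal axis) for the 5 other induced genes with the largest differences (left) and for 4 receptor chaperones (right), 1 point per gene and array. All 3 NT-3N arrays lie above the Control arrays on the left and below them on the right, where the scale is finer.

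Of 19 chaperones and coregulators of the receptor, 4 had a lower mean at an unadjusted p under 0.05 and none a higher one. These were the HSP90 genes Hsp90aa1 (-0.34, SE 0.07) and Hsp90ab1 (-0.32, SE 0.09), Hspa8 (-0.25, SE 0.07), a chaperone of the HSP70 family, and Stip1 (-0.41, SE 0.12), which hands it from HSP70 to HSP90. For each of them all 3 NT-3N arrays lay below both Control arrays. Groups did not overlap, in either direction, for 28.4% of all features, and these 4 were picked at an unadjusted p under 0.05. None was called, with adjusted limma p between 0.20 and 0.38. The list as a whole had a median of -0.05.

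Of 18 genes of steroid supply, transport and the mineralocorticoid axis, 14 were tested and none reached an unadjusted p under 0.05 in limma. The adrenal enzymes Cyp11a1, Cyp11b1 and Cyp11b2 and the plasma carrier Serpina6 were not above background on enough arrays to be tested. Of 15 inflammatory genes that glucocorticoids repress, 12 were tested, and 6 had a higher mean at an unadjusted p under 0.05 and none a lower one, with none called. Icam1, an adhesion molecule for leukocytes, differed by 1.08 (SE 0.20), the chemokine Ccl2 by 0.70 (SE 0.28) and Il1b by 0.49 (SE 0.18). The others, Il6, Cxcl1 and Mmp9, were not well above background on all arrays. Il6 and Mmp9 were so on 2 arrays each, both of them NT-3N arrays. They passed the filter only through the group where they read higher, so their place among the 6 follows in part from the filter. Of 6 neutrophil markers 4 were tested, 2 had a higher mean at an unadjusted p under 0.05 and none was called. These were S100a8 and S100a9, which were well above background on each NT-3N array and on neither Control array. Both passed the filter only through the group where they read higher, so their direction follows in part from the filter. Mmp8 overlapped between the groups (difference 0.50, SE 0.52), Csf3r differed by -0.16 (SE 0.09), and Ly6g and Cxcr2 were not above background on enough arrays to be tested. The log2 sum of the 4 was 16.23 to 16.25 in Control and 15.97 to 16.24 in NT-3N. That sum follows Csf3r, by far the brightest, which read 16.25 and 16.23 on Control and 16.23, 15.96 and 16.04 on NT-3N. With each gene centred on its own mean over the 5 arrays, the mean of the 4 went the other way. It was -1.46 and -1.12 on Control and 1.66, 0.32 and 0.60 on NT-3N. The part of neutrophils in the inflammatory values was not tested.

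**Figure D4:**
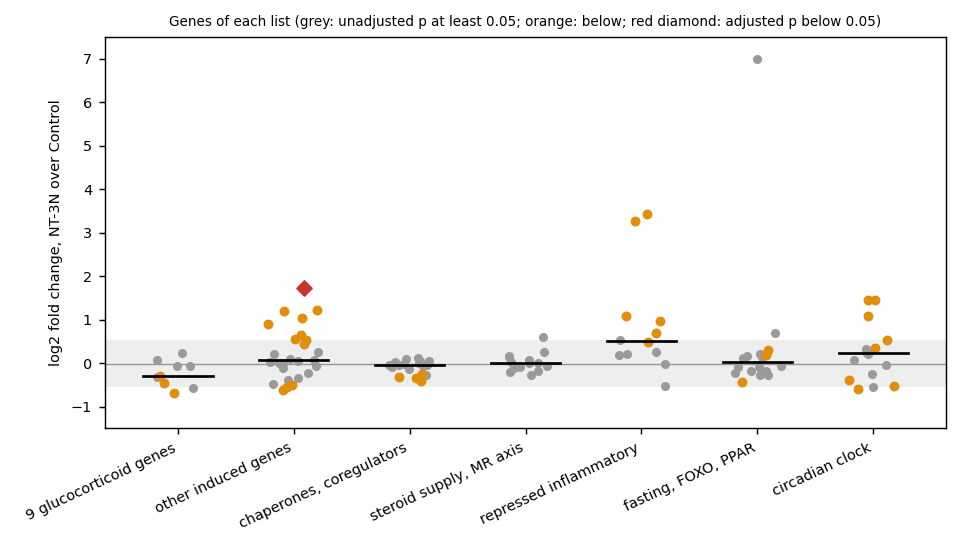
Difference in log2 signal, NT-3N minus Control (vertical axis), for each tested gene of 7 lists (horizontal axis, points spread sideways for view), with the list median as a black line. Grey points have an unadjusted p of at least 0.05, orange points less, and the red diamond (Cebpd) an adjusted p under 0.05. The grey band holds the middle 90% of all features. The gene at 6.98 is Txnip, whose value rests on a spot of Control replicate 1 that read almost no signal.

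Pdk4 is known to follow fasting and Klf9 the clock, so genes of both were described in the same way. Of 20 fasting, FOXO and PPAR target genes, 18 were tested, with 2 higher and 1 lower at an unadjusted p under 0.05 and none called: Fbxo32 (0.31, SE 0.11) and Acadl (0.19, SE 0.08) had the higher mean, and Sesn3 (-0.43, SE 0.11) the lower. Of 16 clock genes, 5 were higher and 3 lower at an unadjusted p under 0.05, with none called. The clock repressors Ciart and Nr1d1 and the clock-output gene Dbp had the largest differences, of 1.46 (SE 0.45), 1.44 (SE 0.46) and 1.09 (SE 0.41). Cry1 differed by -0.59 (SE 0.16). Nr1d1 read 9.75 and 8.14 on Control and 10.74, 10.34 and 10.07 on NT-3N. Control replicate 2 was the lowest array for Ciart, Dbp and Nr1d1 by more than 1 log2 unit. The array order of Nr1d1 was that of Klf9 and of 1.11% of all features. As for Fkbp5 and Hsd11b1, only a matching pair is given, out of many possible pairs of a member and a list or gene. Each share is for a single pair, so the matches are a description only. The part of the hour of sampling in the Klf9 value was not tested.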

How the data were processed

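Colon RNA was hybridized to 1-colour Agilent arrays, 2 Control and 3 NT-3N, all on 1 slide with 1 scan time. Scans were quantified by the authors in Feature Extraction 11.0.1.1 (submitters' processing notes), and the deposited files give for each spot a background-subtracted, detrended intensity that was not scaled between arrays. The authors also deposited log2 values of 37380 probes, which matched the quantile-scaled signal (r of at least 0.99998 on each array) and were an alternative source only.

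Control spots and outlier spots (69 to 184 of 59305 per array) were left out. The processed signal was log2-transformed, averaged per probe and quantile-scaled. Probes well above background on at least 2 arrays were kept, named through RefSeq transcripts (32994 of 56605 probes matched), and the brightest probe stood for a gene. The comparison used R 4.3.3 with limma 3.58.1 (intensity trend, Benjamini-Hochberg). Precision is limited by the number of arrays. Named were the 9 genes, and from each other list the genes called plus up to 4 with the largest differences among those at an unadjusted p under 0.05 and above background on all arrays. Of the genes nearest in profile to a member, 1 is not reported here. The fits were tested on simulated data, with the spread of each probe drawn from limma's own variance model. There limma called 26% of the 2-fold and 68.7% of the 4-fold changes. A gene that was not called may therefore still have changed. The members and lists were chosen with earlier results of these data known. Alternatives covered scaling, background correction, source, filter, variance model, array weights, replicate block, probe rule, test, and each array left out. A run without spots that dropped out on 1 array was chosen after seeing the data.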

Additional observations from a re-analysis of the deposited data

How the results depend on the processing

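The 9 differences were recomputed under 18 other settings. Tsc22d3 had an unadjusted p under 0.05 in 17 of the 18 (not without Control replicate 1), Pdk4 in 12 and Hsd11b1 in 9. The sign turned for Ddit4 without Control replicate 2 (-0.051; range 0.19 to -0.051 over arrays left out), and for Hsd11b2 with array weights (0.012), with the local-pooled-error test named in the methods (0.058) and without NT-3N replicate 1 (0.068, range -0.16 to 0.068 over arrays left out). The cause was not tested. No member was called at an adjusted p under 0.05 except by the local-pooled-error test, which called 1, Zbtb16 (adjusted p = 0.039), and called 348 of all features where limma called 47. In the simulated data 61.0% of the calls of the local-pooled-error test were false, against 5.35% of those of limma. Those data, of 41582 probes, drew the spread of each probe from limma's own variance model. The shares therefore favour limma by construction and cannot decide which test is right on the real arrays. The local-pooled-error test was also recoded here and may differ from the one used in the study. Members at an unadjusted p under 0.05 numbered 3, against 1 without the intensity trend, 5 with array weights and 1 to 4 when each array was left out. The share of all features at that threshold moved as well, from 9.62% to 9.34%, 14.6% and, over the arrays left out, 6.08% to 15.7%. Members with a higher mean in NT-3N numbered 1 to 3 when each array was left out, with 1 without Control replicate 2. With the replicate number as a block, 3 members had an unadjusted p under 0.05, and Tsc22d3 differed by -0.37 (limma unadjusted p = 0.025). NT-3N replicate 3 is alone in its block and adds nothing to the difference. The differences were therefore those found without that array, where Tsc22d3 was also at -0.37. Deviations of same-numbered arrays correlated at 0.13 and 0.04 over 2 pairs. The deviations of 2 Control arrays from their mean mirror each other, so this cannot settle whether same-numbered arrays were paired.

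The call of Cebpd was also lost without a filter on dim probes (adjusted p = 0.16), without the intensity trend (0.17) and with the replicate block (0.53). With the block and without NT-3N replicate 3, limma called 0 of all 32917 features, with 2488 and 2384, respectively, at an unadjusted p under 0.05. Both fits take their differences from the same arrays, so they are not independent settings. With 2 Control arrays, the widest interval of a member, that of Zbtb16, reached down to 0.378 of the Control level.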

Other observations

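On Control replicate 1, 42 probes read at least 6 log2 units below the lowest of the other 4 arrays, where all were well above background, and on each of the other arrays 0 probes did. Their 42 spots lay in a narrow strip of the array, between rows 2 and 177 of 384 and between columns 101 and 126 of 164, and the outlier flags had not removed them. None was a probe of the 9 genes, and the nearest spot of a member, one of Hsd11b2, was 21.1 spot widths away. Txnip, a thioredoxin-binding protein of the fasting list, which was named after its values were seen, was among them: its brightest probe had a processed signal of 2.10 on Control replicate 1 and of 41924 to 55820 on the other arrays, while its second probe read 2080 there and 1883 to 3197 elsewhere. Its difference was accordingly 6.98 (SE 3.67) by the first probe and -0.15 (SE 0.20) by the second. Without the 42 probes the differences of the 9 genes were between -0.67 and 0.23, with 3 at an unadjusted p under 0.05 and none called (limma), and 55 of all features were called in place of 47.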
